A study of Mus musculus with 3 samples.

Results

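The proliferins are secreted glycoproteins of the prolactin family, encoded in the mouse by Prl2c2, Prl2c3 and Prl2c5. The genes were taken by symbol from the deposited expression table, where they make up 3 of 55471 features. They were selected on their TPM in these same libraries, where they stood far apart between the populations, so their levels and ratios are given as a description and none is tested. Because the genes share most of their sequence, the sum of the 3 stands beside each of them.

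The libraries hold polyadenylated RNA of JC, a mouse mammary carcinoma line labelled epithelial-like and wild-type, from 3 cell populations in culture with 1 library each. JC-M3 cells came from lung metastases that were isolated with collagenase after 3 cycles of tail vein injection, with 28 days between injection and isolation. JC-P cells came from tumours grown for 14 days in the mammary fat pad, although their treatment label reads metastasis like that of JC-M3. JC-WT cells carry the label WT and no stated passage through an animal. All 3 populations were grown in the same serum-containing medium. Whether a population came from 1 animal or a pool was not given in the sources used here.

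Proliferin is best known from the placenta, where trophoblast giant cells secrete it at midgestation, and from cultured mouse fibroblasts, which make it when serum or growth factors restart their growth. The protein carries mannose 6-phosphate, binds the mannose 6-phosphate and insulin-like growth factor 2 receptor encoded by Igf2r, and draws endothelial cells into growing vessels. Transcription of proliferin is a textbook case of joint control by AP-1, the Fos and Jun transcription factor dimer, and the glucocorticoid receptor.

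The 3 genes lie in a cluster of 401 kb on mouse chromosome 13. Prl2c3 (ENSMUSG00000056457) spans 12790816 to 12800079 on the minus strand, Prl2c2 (ENSMUSG00000079092) spans 12996125 to 13005383 on the minus strand, and Prl2c5 (ENSMUSG00000055360) spans 13182715 to 13191923 on the plus strand (GRCm38, GENCODE M21). The main transcript of each has 5 exons. Prl2c1, the remaining Prl2c gene in the table, lies 14.7 Mb away on the same chromosome.

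The coding sequences of Prl2c2 and Prl2c3 differ at 3 of 672 bases, an identity of 99.6%. These 3 positions are shown because the main coding sequences of the pair can be told apart there and nowhere else. Counted from 1 at the A of the start codon, with the Prl2c2 base first and the Prl2c3 base last, they are T14C, C200A and T319G. Each is the capital letter in a stretch of coding sequence from GENCODE M21, written 5′ to 3′ on the coding strand.
Prl2c2, bases 1 to 29: atgctcccttcttTgattcaaccatgctc
Prl2c3, bases 1 to 29: atgctcccttcttCgattcaaccatgctc
Prl2c2, bases 185 to 215: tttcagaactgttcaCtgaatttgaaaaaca
Prl2c3, bases 185 to 215: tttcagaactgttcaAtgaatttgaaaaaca
Prl2c2, bases 304 to 334: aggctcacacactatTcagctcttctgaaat
Prl2c3, bases 304 to 334: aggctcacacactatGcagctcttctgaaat

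Prl2c5 stands further off. Over 666 aligned coding bases it differed from Prl2c2 at 20 and from Prl2c3 at 21, and it lacked 6 bases that both hold. Bases 306 to 365, the 60 coding bases with the most differences between Prl2c2 and Prl2c5, are shown with capitals where the 3 genes are not alike.
Prl2c2, bases 306 to 365: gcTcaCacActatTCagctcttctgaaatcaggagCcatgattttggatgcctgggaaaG
Prl2c3, bases 306 to 365: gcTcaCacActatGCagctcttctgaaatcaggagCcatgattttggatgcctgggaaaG
Prl2c5, bases 306 to 365: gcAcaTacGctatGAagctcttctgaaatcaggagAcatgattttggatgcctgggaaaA
The longest run without a difference between Prl2c2 and Prl2c3 in the coding sequence was 353 bases. Of the 50-base windows in annotated transcripts, 83.3% of those of Prl2c2 also occurred in another gene, against 59.99% for Prl2c3 and 35.1% for Prl2c5. With 100-base windows the shares were 56.9%, 44.7% and 8.68% in the same order of genes. The partner of most shared Prl2c2 windows was Prl2c3. A further partner, the pseudogene Gm7040, was near 0 in every library, with 0 reads in JC-M3, 4 in JC-P and 3 in JC-WT.

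**Figure D1:**
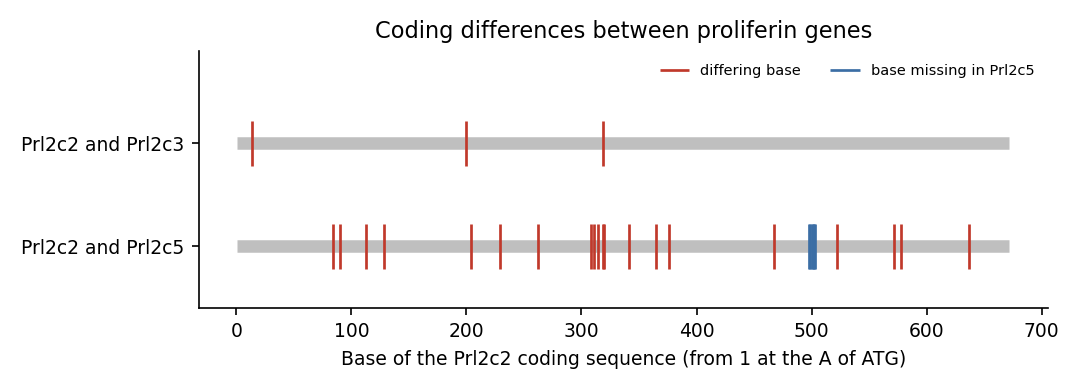
Positions at which the coding sequence of Prl2c2 differs from that of Prl2c3 (upper bar) and of Prl2c5 (lower bar), along the 672 coding bases of Prl2c2. Red lines mark differing bases and the blue block marks the 6 bases absent from Prl2c5. Prl2c2 and Prl2c3 differ at 3 positions, the last of them at base 319.

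The RefSeq promoter table matched 2 of the 3 genes. The 250 bases before the RefSeq start of Prl2c3 and Prl2c5 are shown because the factors named above are known to act upstream of proliferin genes, and because the pair is nearly one sequence. Over 249 aligned bases they differed at 8, with 2 bases in gaps, an identity of 96.8%. Capitals mark matches to TTAGTCA, a variant of the AP-1 motif chosen after the sequences were read, and to TATATAA.
Prl2c3, chr13:12800080-12800329, minus strand, GRCm38.p6: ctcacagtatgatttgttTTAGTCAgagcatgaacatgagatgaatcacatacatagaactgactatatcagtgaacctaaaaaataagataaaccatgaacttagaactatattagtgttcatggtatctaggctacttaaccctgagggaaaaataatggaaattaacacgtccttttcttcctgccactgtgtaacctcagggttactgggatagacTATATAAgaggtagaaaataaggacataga
Prl2c5, chr13:13182466-13182715, plus strand, GRCm38.p6: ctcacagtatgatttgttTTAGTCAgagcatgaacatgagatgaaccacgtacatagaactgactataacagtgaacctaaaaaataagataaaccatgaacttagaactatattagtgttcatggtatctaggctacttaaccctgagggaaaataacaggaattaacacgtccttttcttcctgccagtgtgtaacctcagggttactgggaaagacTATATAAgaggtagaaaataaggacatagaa
TTAGTCA (searched on both strands, with TGACTAA as its reverse) began at -232 in both promoters and was present in 2.01% of 32851 mouse promoters of the same length. TATATAA (reverse TTATATA) began at -30 in Prl2c3 and at -31 in Prl2c5, and 3.04% of promoters held it. The standard AP-1 motif TGACTCA (reverse TGAGTCA), held by 4.46% of promoters, was in neither window, nor was the glucocorticoid receptor half-site AGAACA (reverse TGTTCT), held by 16.1%. Positions count back from the RefSeq start, and the last base of the Prl2c5 window is the first base of that gene in GENCODE M21. A match is a run of letters and was not tested as a binding site.

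The sequenced libraries held 23377996 reads assigned to genes in JC-M3, 22124737 in JC-P and 18088780 in JC-WT, as recovered from the deposited values. Levels are in TPM, a measure of transcript abundance that divides reads by gene length and scales every library to the same total. A feature counts as measured where its mean over the 3 libraries was at least 1 TPM, which held for 14527 features. A ratio is the log2 of TPM + 0.5 in one library over another, which makes differences of low genes look smaller, and a feature is called at 2-fold. With 1 library per population there is no replicate check, and the 95% intervals cover counting error only. Duplicate reads are not independent molecules, so counting intervals can be too narrow. The cells carried the label epithelial-like, and the simple-epithelium keratin Krt8 stood at 681, 1873 and 1503 TPM in JC-M3, JC-P and JC-WT. The epithelial adhesion genes were near 0, with Epcam at 0 reads in all 3 libraries and Cdh1 at 0.67, 0.83 and 0 TPM.

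Proliferin transcripts were abundant in JC-P and JC-WT and scarce in JC-M3. The summed level of the 3 genes was 25.2 TPM in JC-M3 (95% counting interval 21.8 to 28.6), 643 in JC-P (625 to 661) and 389.7 in JC-WT (375 to 405). As a single feature, the sum would rank 6244 of 20911 detected in JC-M3, 189 of 20790 in JC-P and 376 of 19810 in JC-WT. The sum thus stood among the most abundant features of the JC-P and JC-WT libraries and well below them in JC-M3. Singly, Prl2c2 ranked 8857, 307 and 887 in JC-M3, JC-P and JC-WT, and Prl2c3 ranked 8582, 856 and 869. In bulk RNA, fewer cells making a transcript and less transcript per cell cannot be told apart.

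Prl2c2, which encodes proliferin itself, the founding member, had 12.04 TPM in JC-M3, 450.1 in JC-P and 193 in JC-WT, from 90, 3224 and 1128 reads. Prl2c3, whose product was described as a related proliferin, had 13.2 TPM in JC-M3, 192 in JC-P and 196 in JC-WT, from 123, 1716 and 1429 reads. Prl2c5, an alternative name of which is mitogen-regulated protein, had 0 reads in JC-M3, 4 reads in JC-P (0.52 TPM) and 7 reads in JC-WT (1.11 TPM). For Prl2c5 in JC-M3, 3 reads would be 0.37 TPM, and the 95% counting interval of its 0 reads reaches 0.46 TPM. Both abundant genes were lowest in JC-M3, but they parted in the other libraries, with Prl2c2 highest in JC-P and Prl2c3 level between JC-P and JC-WT. Prl2c5 was at or near the detection limit throughout, and 2 of the 3 genes passed the filter on low values.

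**Figure D2:**
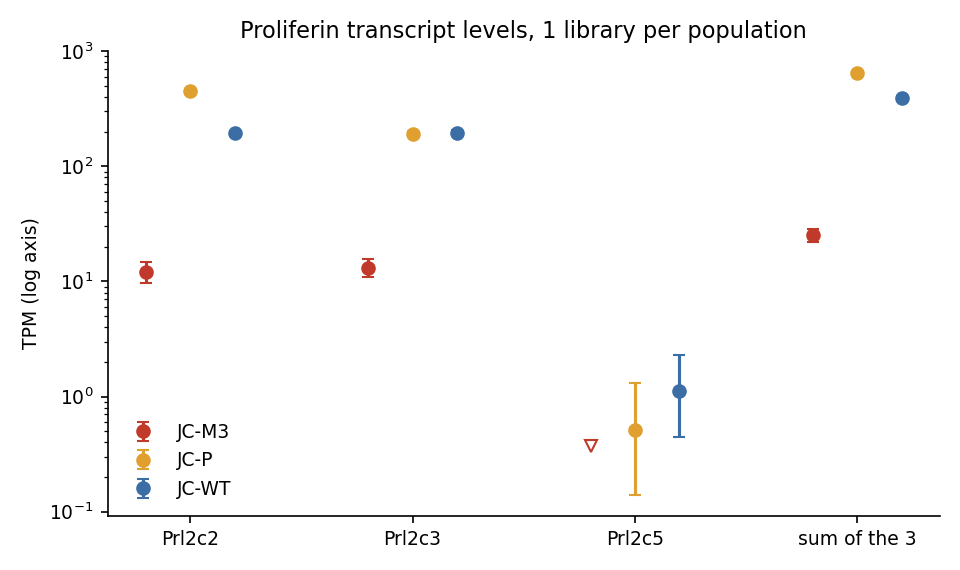
TPM of Prl2c2, Prl2c3, Prl2c5 and their sum on a log axis, in JC-M3 (red), JC-P (yellow) and JC-WT (blue), 1 library each. Points are the deposited values and bars are 95% counting intervals. The open triangle marks 0.37 TPM, the level of 3 reads, for Prl2c5 in JC-M3, which had 0 reads. Prl2c2 and Prl2c3 lie between 12.04 and 13.2 TPM in JC-M3 and between 192 and 450.1 TPM in JC-P and JC-WT.

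JC-M3 was set against JC-P to see how cells selected in the lung stood relative to cells from a fat pad tumour. Prl2c2 was 35.9-fold lower in JC-M3 on the TPM + 0.5 scale, a log2 ratio of -5.17, with a counting interval of the plain TPM ratio from -5.54 to -4.92. It ranked 3 from the lowest among 14527 measured features. For Prl2c3 the difference was 14.1-fold, a log2 ratio of -3.81 (-4.14 to -3.60), and its rank was 23 from the lowest. The counting intervals of the ratios of Prl2c2 and Prl2c3 did not overlap. They hold no variation between cultures, and how reads that fit both genes were split was not given. Whether the populations differ more in Prl2c2 was therefore not tested. The family sum had a log2 ratio of -4.64 (-4.87 to -4.47), 25.01-fold lower in JC-M3. For Prl2c5, with 0 and 4 reads in JC-M3 and JC-P, the upper limit of the interval was 0.54, so no difference was detectable at this depth. Of all measured features, 5.38% were at least 2-fold lower and 3.82% at least 2-fold higher in JC-M3 than in JC-P. Both measured proliferins belonged to the lower ones, a count that the choice of the genes already used and from which nothing is read.

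Set against JC-WT, JC-M3 was lower in both abundant genes by similar amounts. Prl2c2 had a log2 ratio of -3.95 (-4.33 to -3.69), 15.4-fold lower in JC-M3, and Prl2c3 a log2 ratio of -3.84 (-4.17 to -3.63), 14.3-fold lower. Here the intervals of the pair overlapped for most of their width. The sum stood at -3.92 (-4.15 to -3.75). Prl2c5, which did not pass the filter on low values, had 0 reads in JC-M3 and 7 in JC-WT. Its interval ended at -0.88, but covers counting error only and is not read as a difference. In this comparison 5.27% of measured features lay at least 2-fold lower in JC-M3 and 6.14% at least 2-fold higher, and Prl2c2 and Prl2c3 were both among the lower ones by the way they were chosen.

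JC-P differed from JC-WT in Prl2c2 and not detectably in Prl2c3. Prl2c2 was 2.33-fold higher in JC-P (log2 1.22, interval 1.12 to 1.32) and ranked 477 from the highest. Prl2c3 had a log2 ratio of -0.03 (-0.13 to 0.07), an interval that limits any difference between these libraries to a small one. The sum was 1.65-fold higher in JC-P (log2 0.72, interval 0.65 to 0.79) and so stayed below 2-fold. Prl2c5, from 4 and 7 reads in JC-P and JC-WT, had an interval from -3.32 to 0.88 that includes no change. Among measured features 4.76% lay at or above 2-fold in JC-P, with Prl2c2 one of them, and 2.33% at least 2-fold below JC-WT. The comparisons share libraries in pairs, so their values for a gene are not independent of each other.

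The family's assigned reads were split differently in the JC-P library than in those of JC-M3 and JC-WT. Prl2c2 supplied 42.3% of the family's reads in JC-M3 (exact binomial 95% interval 35.5 to 49.2), 65.2% in JC-P (63.9 to 66.5) and 44.0% in JC-WT (42.1 to 45.9). The interval of JC-P overlapped neither of the others, while those of JC-M3 and JC-WT overlapped. These intervals cover counting error within 1 library per population. Prl2c5 supplied 0% in JC-M3 (95% interval up to 1.72%), 0.08% in JC-P and 0.27% in JC-WT. Whether reads that fit several copies were dropped or assigned was not given in the sources used here, and which copies the genome of the JC line holds was not analysed here.

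Which of the abundant genes was the higher one depended on how length was counted. In TPM the ratio of Prl2c2 to Prl2c3 was 0.91 in JC-M3 (0.69 to 1.21), 2.34 in JC-P (2.21 to 2.49) and 0.985 in JC-WT (0.91 to 1.07), so the pair was level within counting error in JC-M3 and JC-WT. Counted per 50-base window that occurs in no other annotated gene, of which Prl2c2 has 190 and Prl2c3 543, the ratio of the read densities was 2.09, 5.37 and 2.26 in JC-M3, JC-P and JC-WT. With unique 100-base windows, 499 in Prl2c2 and 745 in Prl2c3, it was 1.09, 2.81 and 1.18. Each of these 3 measures divides the same reads by a fixed number per gene. The order of the populations is therefore the same under each by construction, with JC-P highest, and is no check on the shared sequence. Prl2c2 was the higher gene in JC-P under each measure. In JC-M3 and JC-WT the order of the levels is not settled.

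**Figure D3:**
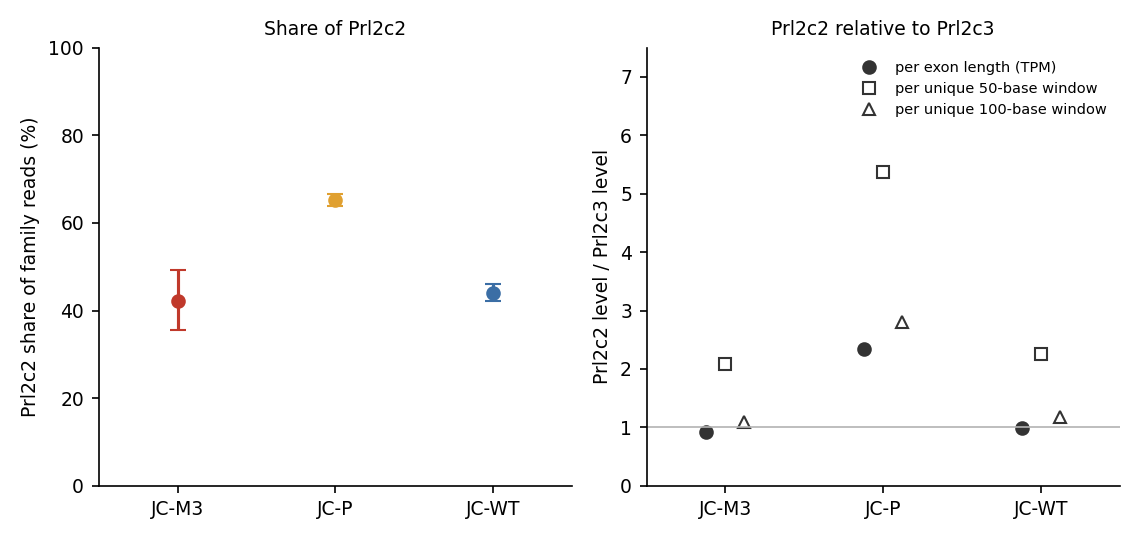
Left, the share of the family's reads that came from Prl2c2 in JC-M3, JC-P and JC-WT, with exact binomial 95% intervals. Right, the level of Prl2c2 divided by that of Prl2c3 per exon length (filled circles), per unique 50-base window (squares) and per unique 100-base window (triangles), with a line at equal levels. The share is 65.2% in JC-P and 42.3% and 44.0% in JC-M3 and JC-WT. The measures divide the same reads by fixed numbers per gene, so JC-P has the highest ratio under each by construction.

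The genes around the cluster were mostly lower in JC-M3 than in JC-P, as were those of chromosome 13 as a whole. On that chromosome without the members, the median log2 ratio was -0.52, and 50 of 435 measured protein-coding genes were at least 2-fold lower. Within 1 Mb of a member lie 15 other protein-coding genes, of which 11 were measured. Of these, 10 had a ratio below 0 for JC-M3 over JC-P, 2 were at least 2-fold lower and 0 at least 2-fold higher, and the median log2 ratio was -0.64, against -0.01 over all measured features. The lowest was Gpr137b, which encodes a lysosomal membrane protein and lies 166 kb beyond Prl2c5, at 11.3 TPM in JC-M3 and 90.6 in JC-P (log2 -2.95, interval -3.16 to -2.85). On the other side of the cluster, 140 kb from Prl2c3, its transcribed pseudogene Gpr137b-ps had 13.6 and 61.7 TPM in JC-M3 and JC-P (log2 -2.14, interval -2.33 to -2.03). Of their 50-base windows, 28.6% for Gpr137b and 29.5% for Gpr137b-ps occur in other genes, mostly in each other, and the split of reads between the pair is uncertain.

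Other neighbours differed less. Edaradd, an adaptor of the ectodysplasin receptor, had 25 reads in JC-M3 and 104 in JC-P, a log2 ratio of -1.46. Lgals8, which encodes a galectin, had 103 and 196 TPM in JC-M3 and JC-P, a log2 ratio of -0.92. Ero1b, an endoplasmic reticulum oxidase gene 179 kb from the cluster, had 11.8 TPM in JC-M3 and 13.9 TPM in JC-P, with a log2 ratio of -0.23, and Heatr1, a ribosome biogenesis gene, was the 1 neighbour above 0, at 0.16. Of the neighbours named, Gpr137b and its pseudogene had the ratios nearest to those of the proliferins.

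Chromosome 13 as a whole lay in the same direction. Without the members, 378 of its 435 measured protein-coding genes had a ratio below 0 for JC-M3 over JC-P. Their median was -0.52, the lowest of any chromosome, against 0.01 for protein-coding genes of the other autosomes and X together. Single chromosomes among the others also lay off 0, with medians of -0.26 for chromosome 14, -0.23 for chromosome 2, 0.24 for chromosome 15 and 0.25 for chromosome 3. The highest was 0.85, for Y, which had the lowest median of any chromosome, -0.50, for JC-P over JC-WT. The median was -0.48 for 15 genes between 1 and 5 Mb from the cluster and -0.52 for 409 genes farther away, a division chosen after the values were seen. For JC-P over JC-WT the chromosome's median was 0.03 and that of the neighbours 0.10. With the chromosome's median subtracted, the family sum had a log2 ratio of -4.12 for JC-M3 over JC-P. The part of the chromosome-wide shift in the result was not tested beyond this subtraction.

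**Figure D4:**
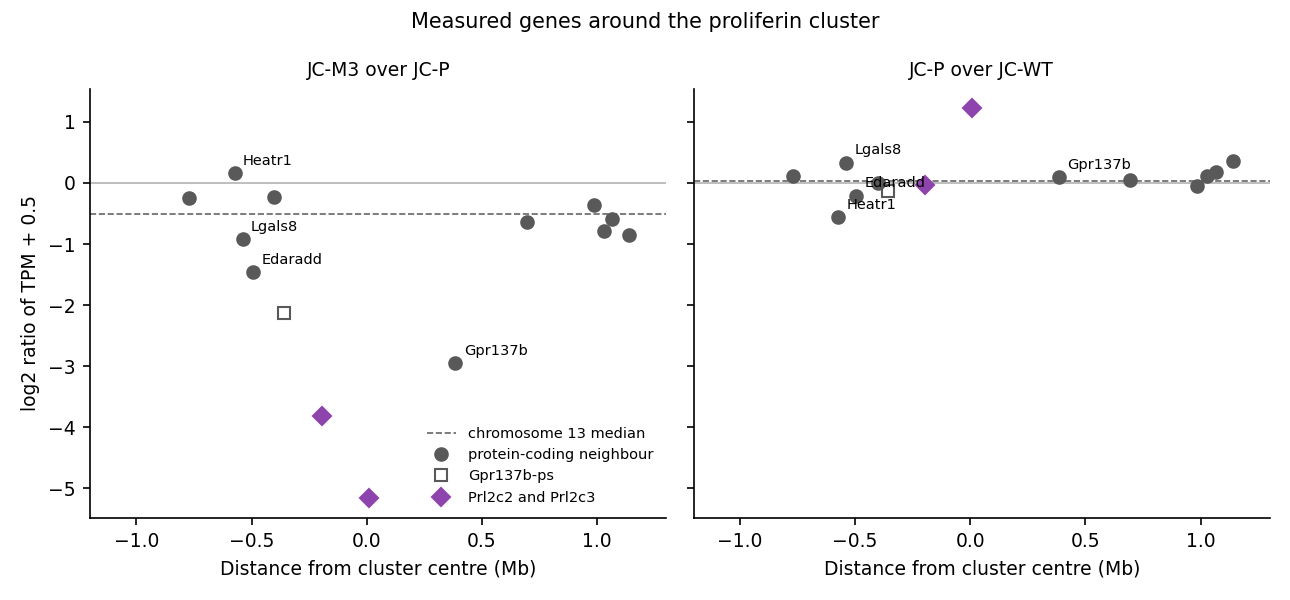
Log2 ratios of measured genes against their distance from the centre of the proliferin cluster, for JC-M3 over JC-P (left) and JC-P over JC-WT (right). Diamonds are Prl2c2 and Prl2c3, grey circles other protein-coding genes, the open square Gpr137b-ps, and the dashed line the median of chromosome 13 without the members. On the left the diamonds lie at -5.17 and -3.81, Gpr137b at -2.95 and the remaining protein-coding neighbours between -1.46 and 0.16.

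The rest of the prolactin family was close to silent. Of 24 other family genes in the table, the hormones Prl and Gh included, 0 were measured and 18 had no read in any library. The highest was Prl7a1, a placental family member, at 5 reads in JC-M3 and 3 in JC-P, against 0 in JC-WT. Prl2c1, the closest relative by name, had 0, 1 and 1 reads in JC-M3, JC-P and JC-WT. Among the genes of this hormone family in the table, substantial transcript was therefore found for Prl2c2 and Prl2c3.

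Markers of trophoblast, the tissue best known for proliferin, were also at 0 with 1 exception. Of 11 trophoblast markers, 10 had no read in any library, among them Hand1, the giant cell transcription factor, and Prl3d1, placental lactogen I. The exception was Plac1, a placenta-specific gene also found in tumours, at 3.34 TPM in JC-M3, 16.9 in JC-P and 10.02 in JC-WT (log2 -2.18 for JC-M3 over JC-P). In the wider list of 25 trophoblast and placenta genes 4 were measured, with 1 at least 2-fold higher and 2 lower in JC-M3 than in JC-P and a median log2 ratio of -0.93. Besides Plac1, the other lower one was Stra6, a retinol transporter gene, with 2 reads in JC-M3 and 105 in JC-P. Gata2, a transcription factor that drives placental prolactin genes in the mouse, was higher in JC-M3, at 6.62 TPM against 2.11 TPM in JC-P. Its relative Gata3, which is also a mammary gene, stood at 81.1, 64.95 and 73.6 TPM in JC-M3, JC-P and JC-WT.

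On the receptor side, none of the 3 measured genes passed 2-fold in any comparison. Igf2r, the receptor that binds proliferin, had 58.6 TPM in JC-M3, 101 in JC-P and 100.3 in JC-WT (log2 -0.79 for JC-M3 over JC-P). The smaller mannose 6-phosphate receptor gene M6pr had 181, 127 and 139 TPM in JC-M3, JC-P and JC-WT. Prlr, the prolactin receptor, had no read in any library. The enzymes that put the mannose 6-phosphate tag on secreted and lysosomal proteins were likewise within 2-fold, 3 of 3 in each comparison. Gnptab, the catalytic precursor of the phosphotransferase, had 49.6, 43.3 and 33.8 TPM in the same order of libraries.

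Growth factor and growth factor receptor genes, the class of signal known to induce proliferin in mouse fibroblasts, lay on both sides. Of 13 listed genes 12 were measured, and 2 were at least 2-fold higher and 3 lower in JC-M3 than in JC-P, with a median log2 ratio of 0.08. Lower were the epidermal growth factor receptor ligand Tgfa (0.92 TPM in JC-M3 and 5.02 TPM in JC-P, log2 -1.96), the fibroblast growth factor Fgf2 (1.93 TPM in JC-M3 and 6.06 in JC-P, log2 -1.43) and the platelet-derived growth factor receptor Pdgfra (20.1 TPM in JC-M3 and 47.6 in JC-P, log2 -1.22). Higher were Pdgfb, at 3.68 TPM in JC-M3 and 1.32 TPM in JC-P, and Tgfb1, at 17.8 TPM in JC-M3 and 8.09 in JC-P. Against JC-WT, 3 of the 12 were past 2-fold on the higher side in JC-M3 and 2 on the lower side, with a median of 0.38. In JC-P, 1 of the 12 was at least 2-fold higher than in JC-WT, Fgf1, at 2.31 TPM in JC-P against 0.61 TPM in JC-WT.

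AP-1 subunit genes were mostly within 2-fold. Of 11 listed, 9 were measured, and in JC-M3 against JC-P 1 was at least 2-fold higher and 0 lower, with a median log2 ratio of 0.17. The higher one was Junb, at 147 TPM in JC-M3 and 72.6 TPM in JC-P. The most abundant subunit, Fosl1, had 264, 216 and 272 TPM in JC-M3, JC-P and JC-WT, and Jun had 201, 179 and 173 TPM. Against JC-WT, Fos (3.66 TPM in JC-M3 and 0.95 TPM in JC-WT) was the 1 subunit past 2-fold, and between JC-P and JC-WT all 9 lay within 2-fold.

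Genes of the glucocorticoid receptor list were within 2-fold or higher in JC-M3. Of 9 listed, 7 were measured, with a median log2 ratio of 0.44 for JC-M3 over JC-P. Nr3c1, the receptor itself, had 47.3 TPM in JC-M3, 34.6 in JC-P and 32.8 in JC-WT. Its target Fkbp5, an immunophilin, was the 1 gene at least 2-fold higher, at 19.4 TPM in JC-M3 and 7.10 TPM in JC-P. Tsc22d3, another target, was on the other side, at 11.4 TPM in JC-M3 and 16.8 TPM in JC-P. Between JC-P and JC-WT, 0 of the 7 passed 2-fold in either direction.

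Markers of other cell types were looked at beside these results. The 6 leukocyte markers summed to 7.75, 6.78 and 11.9 TPM in JC-M3, JC-P and JC-WT, with Ptprc, the common leukocyte antigen, at 0 in each. The 6 endothelial markers summed to 3.05, 35.9 and 7.91 TPM in the same order, highest in JC-P like Prl2c2. That sum rested on Cdh5 and Plvap, while Kdr was at 0 in each library and Pecam1 at or below 0.24 TPM. The 8 markers of fibroblasts, the cells in which proliferin was first described, summed to 1005, 371 and 174 TPM in the same order. Most of that sum was the collagen gene Col1a1, at 949, 261 and 132 TPM, and single markers lay on both sides. Of the 6 measured, 2 were at least 2-fold higher (Col1a1 and Col1a2) and 3 at least 2-fold lower (Col3a1, Dpt and Pdgfra) in JC-M3 than in JC-P, with a median log2 ratio of -0.28. Col3a1, another collagen gene, had 8.76 TPM in JC-M3, 46.01 in JC-P and 3.99 in JC-WT. Lum and Thy1 were at 0 in each library. The part of other cells in the proliferin levels was not tested.

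The 12 eligible genes with the pattern most like the family sum were found by the distance between pairs of log2 ratios, JC-M3 over JC-P and JC-P over JC-WT. Eligible were 8819 features with a gene symbol, a mean of at least 10 TPM and no predicted, clone or RIKEN name. Prl2c2 and Prl2c3 themselves came first, at distances of 0.72 and 1.12. Of the other 10, Slc38a3, a glutamine transporter gene, was the nearest at 1.16, with 11.6 TPM in JC-M3, 135 in JC-P and 87.9 in JC-WT. It was followed by Gsta4, a glutathione transferase gene, with 50.7, 525 and 243 TPM in the same libraries, and by Scara5, a ferritin receptor gene, with 0.89, 57.4 and 77.9 TPM. The growth arrest gene Gas6, the neurotrophin receptor gene Ngfr, Ly6c1, a surface antigen gene, and Padi1, a peptidylarginine deiminase gene, came next. These 4 lay between 2.06 and 6.39 TPM in JC-M3, between 23.9 and 71.5 in JC-P and between 10.9 and 72.6 in JC-WT. Gpr137b, the neighbour described above, was at a distance of 1.81 and was 1 of the 10 on chromosome 13. Mmp10, a stromelysin gene, and the surface antigen gene Ly6a completed the list at 1.896 and 1.902. The levels of Ly6c1, Padi1 and Ly6a are less certain, since 32.8%, 30.3% and 19.0% of their 50-base windows occur in other genes. With 3 libraries, likeness rests on 2 ratios and is a description.

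**Figure D5:**
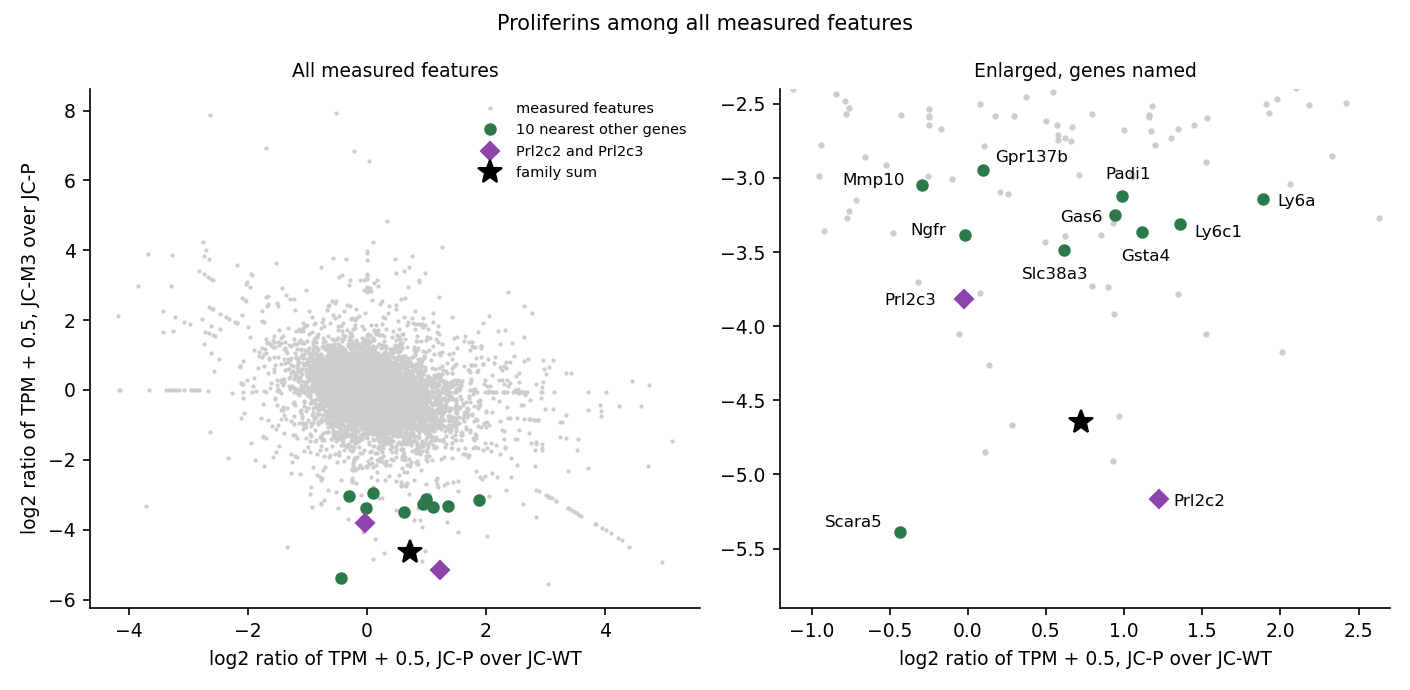
Log2 ratio of JC-M3 over JC-P against that of JC-P over JC-WT for the 14527 measured features (grey), with the corner that holds the proliferins enlarged on the right. Purple diamonds are Prl2c2 and Prl2c3, the star is the family sum, and green circles are the 10 nearest other eligible genes. Eligible genes had a gene symbol, a mean of at least 10 TPM and no predicted, clone or RIKEN name. Grey points nearer than these are features that were not eligible. The family sum lies at 0.72 on the horizontal axis and -4.64 on the vertical one.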

How the data were processed

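Per the file headers, the deposited values are TPM, made by the authors for 55471 features in 3 libraries of mouse JC cells. STAR 2.7.9a, FastQC 0.11.9 and featureCounts, and the builds mm10 and GRCm38, come from the submitters' processing notes. The sources used here do not give the annotation release, the strand setting or how multi-mapped reads were handled.

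The members, gene lists and comparisons were chosen with earlier results of these data known. TPM multiplied by merged GENCODE M21 exon length gave whole reads, within 0.01 of a read, for 98.5% of expressed features in JC-M3, 98.5% in JC-P and 98.4% in JC-WT. Ratios are log2 of TPM + 0.5, and calls are at 2-fold among features whose mean reached 1 TPM. With 1 library per population no test was run. Intervals for genes are exact conditional (Clopper-Pearson) or Poisson, and those of the summed TPM are normal approximations from the reads. Genes named are the 3 members, the 12 nearest patterns among eligible genes, members of the fixed lists and neighbours within 1 Mb. The design lists Prl2c4, an older name of Prl2c3, which is not a separate symbol in the table. The pseudogenes Gm7040, which shares sequence with the members, and Gpr137b-ps, a neighbour, were added after the values were seen. Scripts were checked on simulated data. The software was Python 3.11.15, numpy 2.4.6, pandas 2.3.3, scipy 1.17.1, Biopython 1.88 and matplotlib 3.10.9.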

Additional observations from a re-analysis of the deposited data

How the results depend on the processing

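Under 4 other scalings and 3 other pseudocounts the log2 ratios of Prl2c2, Prl2c3 and their family sum kept their direction and their side of 2-fold, apart from that of Prl2c3 for JC-P over JC-WT, which lay near 0 and ranged from -0.03 to 0.01. Those of Prl2c5, with at most 7 reads, moved with the pseudocount, from -2.63 to -0.33 for JC-M3 over JC-P, and the ratio to JC-WT was -0.64, inside 2-fold, with pseudocount 2. Of the shifts the 4 scalings gave to whole libraries, the largest was 0.0441 on the log2 scale, for JC-M3 over JC-WT with upper-quartile scaling. Alternatives added after the data were seen moved the family sum without ending a call. With the chromosome 13 median subtracted it was -4.12 against JC-P and -3.48 against JC-WT for JC-M3. Per unique 50-base window it was -4.93 between JC-M3 and JC-P and 0.94 between JC-P and JC-WT, where the 2-fold call was not reached either way. Counts of features past 2-fold depended on low genes. For JC-M3 over JC-P, 555 higher and 781 lower became 328 and 443 with pseudocount 2, 253 and 397 where the mean had to reach 5 TPM, and 1024 and 1288 with no filter. For JC-M3 over JC-WT, 892 higher and 766 lower became 522 and 471 with pseudocount 2 and 402 and 407 at a mean of 5 TPM or more, and the higher count was 1544 with no filter. For JC-P over JC-WT, 692 higher and 339 lower became 361 and 173, 264 and 120, and 1288 and 647 under the same settings. These counts change because fewer or more low features are called. Depth limits Prl2c5. No paired analysis was possible because each population has 1 library.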
